A study of Mus musculus with 8 samples.

Results

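The T cell receptor complex and the proteins that act directly downstream of it were described by 9 genes, Cd3d, Cd3e, Cd3g, Cd247, Cd4, Lck, Zap70, Lat and Cd5, in sorted mouse regulatory T cells. A probe set was taken as a member when its deposited Entrez identifier was that of 1 of these genes and no other. This gave 18 of the 45037 non-control probe sets of the Mouse430_2 array, and 9 of the 20665 genes that it represents with a single identifier. Cd247 and Lck have 4 probe sets each, Zap70 has 3, Cd4 has 2, and the other members have 1 each.

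Untreated mice aged 14 to 17 weeks gave the cells. Lymph nodes and spleens of 20 mice were pooled, CD4+CD25+ T cells were sorted by a red (RFP) and a green (GFP) fluorescent protein, and 50 ng of RNA was labelled. The labels call the GFP-RFP+ cells peripherally induced and the GFP+RFP+ cells thymically induced regulatory T cells, and each population was taken from both organs. The labels do not name the reporter alleles or the promoters that drive them. Each of the 4 groups has 2 arrays, which the labels name as technical replicates, so the spread between them is that of the array measurement and not of mice or sorts, and the population comparison was repeated only across the organs.

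In a T cell the antigen-binding receptor chains do not signal by themselves. The CD3 delta, epsilon and gamma chains and the zeta chain, encoded by Cd247, carry tyrosine motifs that the kinase Lck, held at the co-receptor CD4, phosphorylates after antigen is bound. The kinase Zap70 then docks to these motifs and phosphorylates the adaptor Lat, which gathers the downstream enzymes. CD5 is a surface glycoprotein that dampens this signal, and its surface level is widely read as a record of receptor signal strength. Regulatory T cells need the receptor for their selection and for their function.

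RefSeq start-region sequences of the build GRCm38.p6 are available for 8 of the 9 members, with 11 annotated starts in all, each covering 250 bases before and 50 bases after the start. The 3 CD3 chain genes lie together on chromosome 9. The starts of Cd3g and Cd3d are 1355 bases apart and point away from each other, and the start of Cd3e lies 27825 bases beyond that of Cd3d. The start regions of these 3 genes are shown because their probe sets gave similar profiles over the arrays, and both Lck start regions are shown because the Lck probe sets did not agree. Capitals mark the letters of 5 motifs searched on both strands: GGAAG (the ETS core), TGTGGT (RUNX), CAGCTG (an E-box), AGATAA (bound by GATA factors) and the TATA box motif.
Cd3g, chr9:44980382-44980681, minus strand: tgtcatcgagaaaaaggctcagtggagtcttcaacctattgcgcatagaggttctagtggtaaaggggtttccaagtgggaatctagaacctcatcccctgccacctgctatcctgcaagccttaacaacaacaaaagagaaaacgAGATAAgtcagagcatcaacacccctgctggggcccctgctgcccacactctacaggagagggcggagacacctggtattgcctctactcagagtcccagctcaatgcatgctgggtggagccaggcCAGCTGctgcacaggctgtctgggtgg
Cd3d, chr9:44981536-44981835, plus strand: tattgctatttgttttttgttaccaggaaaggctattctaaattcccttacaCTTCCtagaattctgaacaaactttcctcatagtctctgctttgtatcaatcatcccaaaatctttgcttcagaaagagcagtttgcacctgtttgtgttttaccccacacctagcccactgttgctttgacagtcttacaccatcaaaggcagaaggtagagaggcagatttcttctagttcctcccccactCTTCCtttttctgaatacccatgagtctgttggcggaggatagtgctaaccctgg
Cd3e, chr9:45009562-45009861, minus strand: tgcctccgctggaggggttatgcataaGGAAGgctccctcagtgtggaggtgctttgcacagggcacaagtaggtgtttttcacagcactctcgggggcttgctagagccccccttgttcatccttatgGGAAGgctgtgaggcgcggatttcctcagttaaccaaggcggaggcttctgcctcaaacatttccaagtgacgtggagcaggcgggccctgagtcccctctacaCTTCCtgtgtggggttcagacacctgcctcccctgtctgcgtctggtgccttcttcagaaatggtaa
Lck, upstream start, chr4:129573592-129573891, minus strand: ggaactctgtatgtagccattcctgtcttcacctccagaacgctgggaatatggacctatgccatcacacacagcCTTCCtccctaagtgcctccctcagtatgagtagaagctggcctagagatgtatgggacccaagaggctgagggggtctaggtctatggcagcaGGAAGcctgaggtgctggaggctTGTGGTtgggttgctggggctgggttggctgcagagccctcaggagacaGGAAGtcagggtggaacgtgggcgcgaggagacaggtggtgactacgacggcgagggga
Lck, downstream start, chr4:129558323-129558622, minus strand: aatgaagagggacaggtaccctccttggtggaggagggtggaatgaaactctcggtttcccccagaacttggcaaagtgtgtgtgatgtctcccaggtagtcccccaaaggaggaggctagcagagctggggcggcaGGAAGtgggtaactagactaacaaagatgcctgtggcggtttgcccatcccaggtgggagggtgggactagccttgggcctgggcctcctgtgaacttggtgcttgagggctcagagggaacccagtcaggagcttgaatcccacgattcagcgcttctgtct

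None of these motifs shares letters with another in the windows shown. Cd3d has 2 ETS cores and Cd3e has 3, whereas Cd3g has none but holds 1 GATA-factor and 1 E-box motif. The upstream Lck start has 3 ETS cores and 1 RUNX motif, and the downstream start, 15269 bases away, has 1 ETS core. Over all 11 member start regions, 9 hold GGAAG, 3 hold TGTGGT, 1 holds CAGCTG, 1 holds AGATAA and 0 hold the TATA box motif. Among 32851 mouse start regions of the same length the shares are 71.4% for GGAAG, 16.8% for TGTGGT, 16.3% for CAGCTG, 11.2% for AGATAA and 13.6% for the TATA box motif. A match describes the letters only, and the arrays do not tell from which start a transcript came.

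The deposited values are dChip model-based expression values on a linear scale. The mean over the non-control probe sets ran from 198.8 to 221.2 per array, and between 53.3% and 56.2% of these probe sets had the detection call P (present). The 4 regulatory T cell markers Foxp3, Il2ra, Ikzf2 and Nrp1 were called P on all 8 arrays. Summed over their listed markers, CD8 T cells gave 135 to 191 per array, NK cells 85.0 to 123 and dendritic cells 95.02 to 108. Of the gamma delta T cell list only Sox13 was measured, at 5.03 to 12.2. B cell markers summed to 174 to 262 on the lymph node arrays and to 386 to 603 on the spleen arrays. Myeloid markers summed to 132 to 158 on the lymph node arrays and to 1061 to 2032 on the spleen arrays, and erythroid markers to 22.0 to 33.7 and 313 to 900 respectively.

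**Figure D1:**
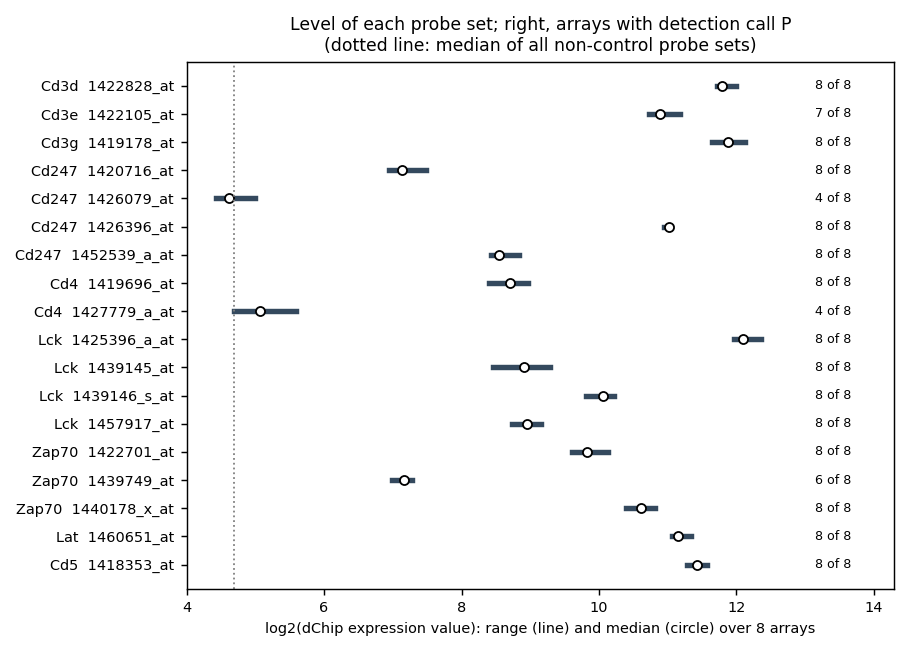
Level of the 18 member probe sets over the 8 arrays without regard to group, as the log2 of the dChip value; the line spans the lowest to the highest array, the circle is the median, and the number on the right counts arrays with call P. All members have at least 1 probe set well above the dotted median of all probe sets, at 4.68, while 1 Cd247 and 1 Cd4 probe set lie near it.

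Taken as 8 arrays of regulatory T cells with no group, every member except Cd4 had at least 1 probe set above the 96.9th percentile of each array, and the brightest Cd4 probe set lay between percentiles 86.0 and 89.5. The probe set with the highest mean level was used to represent a gene. Of these 9 representatives, 8 were called P on all 8 arrays, and that of Cd3e was called P on 7 and marginal on 1. Apart from Cd4, which ranked between 4726 and 6307, all representatives ranked within the highest 1392 of 45037 probe sets on every array. The ranks describe each probe set within its array and do not order the genes, since probe sets differ in how they bind.

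Within an array the representative probe set of Lck ranked between 217 and 254, that of Cd3g between 272 and 344, and that of Cd3d between 303 and 367. Cd5 ranked between 389 and 576, Lat between 553 and 706, Cd3e between 688 and 960, and Cd247 between 706 and 859. Zap70 ranked between 1008 and 1392.

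The range over the 8 arrays was small for the representatives. Cd247 (1426396_at) was the steadiest, with log2 values from 10.95 to 11.05, a range of 0.10. Cd3d, Cd5 and Lat spanned 0.28 each, Lck 0.39, Zap70 0.43, Cd3e 0.45, Cd3g 0.49 and Cd4 0.56. The median range was 1.01 over all non-control probe sets and 0.49 over the 17476 that were called P on all arrays. The probe sets 1426079_at of Cd247 and 1427779_a_at of Cd4, had medians of 4.62 and 5.07 and were called P on 4 arrays and absent on 4. The Zap70 probe set 1439749_at was called P on 6 arrays.

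The value table names its columns by sample, so the same values could be compared between the populations. Differences are given on the log2(value + 1) scale as GFP-RFP+ minus GFP+RFP+, from a limma fit in which the 2 technical replicates of each group were averaged and the organ was a covariate. This left 4 averaged units, 2 per population. At an adjusted p under 0.05 this fit called 0 of 45037 probe sets (0%), against 7714 at an unadjusted p under 0.05 (17.1%), and it has 1 residual degree of freedom. A miss in this fit was therefore all but fixed by the design and shows nothing about a gene. At the unadjusted level 2 of the 18 member probe sets passed, Cd4 1419696_at and Lck 1439145_at. A second fit, whose prior variance follows the signal level (limma with an intensity trend), called 4562 probe sets higher (10.1%) and 2406 lower (5.34%) in GFP-RFP+ cells, and the adjusted p of this trend fit is given beside that of the averaged fit.

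**Figure D2:**
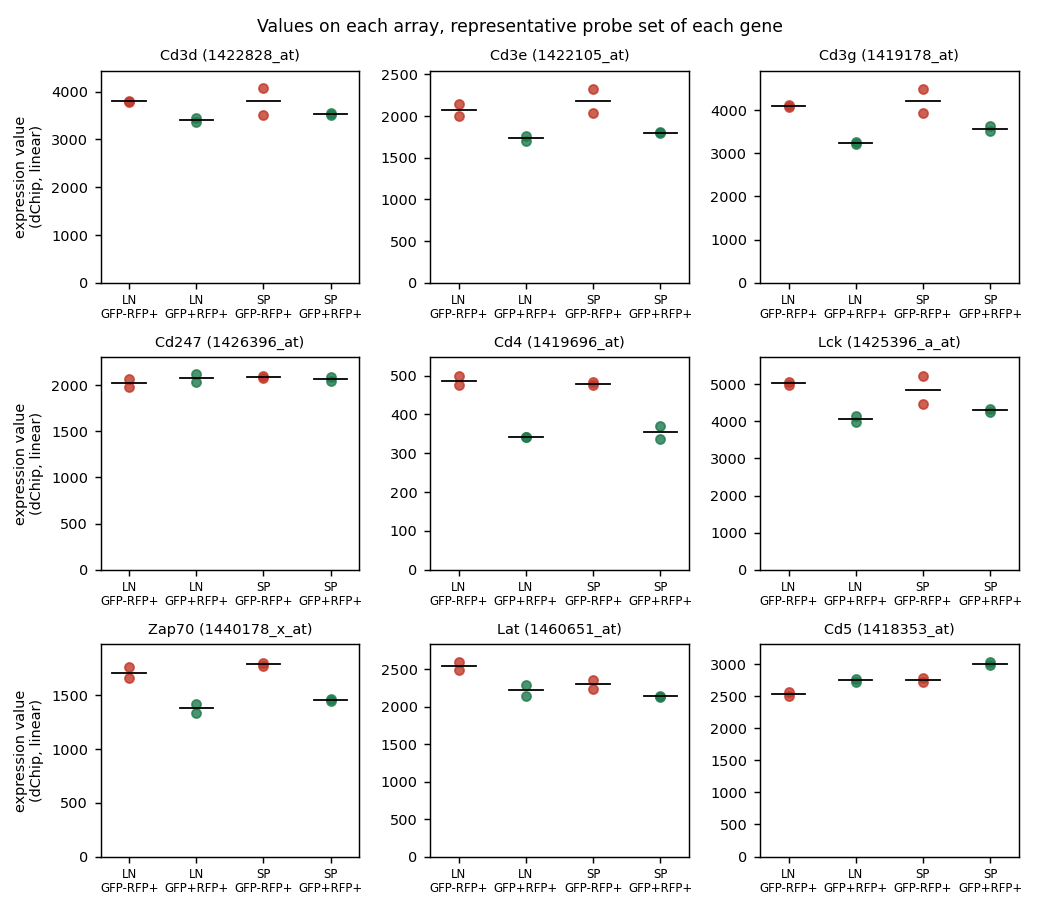
Deposited dChip value (linear axis from 0) of the representative probe set of each member on each array, in the 4 groups (LN, lymph nodes; SP, spleen); points are the 2 technical replicates and the bar is their mean. Cd3e, Cd3g, Cd4, Lck and Zap70 are higher on all 4 GFP-RFP+ arrays (red) than on all 4 GFP+RFP+ arrays (green).

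Of the 9 representative probe sets, the 5 of Cd3e, Cd3g, Cd4, Lck and Zap70 were higher on every GFP-RFP+ array than on every GFP+RFP+ array, by 1.18-fold to 1.39-fold. Cd3d, Cd247, Lat and Cd5 overlapped between the populations. None of the 9 passed the averaged fit (adjusted p 0.264 to 0.963), which passed no probe set of the array, and 5 passed with the intensity trend. Of all probe sets, 12% were wholly higher in GFP-RFP+ cells by this count and 7.42% wholly lower, and among those called P on all arrays the shares were 23.8% and 13.1%. The difference had the same sign in both organs for 8 of the 9 representatives, all but Cd247.

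The scale bears on these differences. The median population difference was 0.0093 over all probe sets, but 0.055 over the highest 5% by mean level and 0.099 over the highest 1%, where 86.3% of probe sets were higher in GFP-RFP+ cells. After quantile normalization these medians were -0.038, -0.049 and -0.026. Of the 18 member probe sets 9 lie in the highest 5%, among them every representative except that of Cd4. The difference of each representative is given on both scales, and those of several other probe sets only as deposited. The trend fit after quantile normalization was chosen after seeing the data. Over the 9 representatives the median was 0.24 as deposited and 0.049 after quantile normalization.

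**Figure D3:**
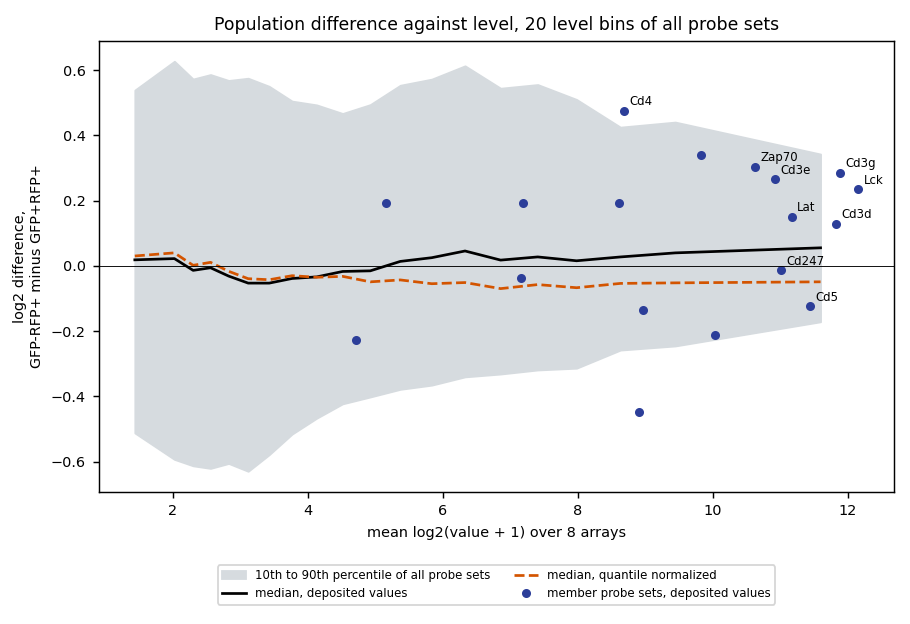
Log2 population difference (GFP-RFP+ minus GFP+RFP+) against mean log2(value + 1) over 8 arrays; the band and solid line are the 10th to 90th percentile and median of all probe sets in 20 level bins, the dashed line is the median after quantile normalization, and points are the 18 member probe sets. The solid line reaches 0.055 in the top bin, and Cd4 (0.48) lies above the band and the Lck probe set 1439145_at (-0.45) below it, with the Lck probe set 1439146_s_at (-0.21) near its lower edge, while Cd3d, Cd3g and the Lck representative lie to the right of its last point.

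Among the CD3 chains, Cd3e (1422105_at), whose chain is needed to assemble the receptor complex, read 2002 and 2143 on the lymph node GFP-RFP+ arrays, 1697 and 1766 on the lymph node GFP+RFP+ arrays, 2326 and 2039 on the spleen GFP-RFP+ arrays and 1812 and 1791 on the spleen GFP+RFP+ arrays. All 4 GFP-RFP+ arrays lay above the GFP+RFP+ arrays. The difference was 0.27 ± 0.11 (SE, 4 averaged units), with a limma adjusted p of 0.361 and, with the intensity trend, an adjusted p of 0.00284. Here and below the SE is that of the averaged fit, in which limma draws each variance toward a value shared by all probe sets. It is therefore not the spread of the gene alone, and it is not the error of the trend fit (0.054 for Cd3e). After quantile normalization it was 0.18, and the trend fit still called it (adjusted p = 0.0213).

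Cd3g (1419178_at), the gamma chain, read 4070 and 4118 on the lymph node GFP-RFP+ arrays, 3271 and 3206 on the lymph node GFP+RFP+ arrays, 4488 and 3925 on the spleen GFP-RFP+ arrays and 3631 and 3511 on the spleen GFP+RFP+ arrays. The populations did not overlap, and the difference was 0.29 ± 0.11 (SE), with a limma adjusted p of 0.353 and 0.00159 with the trend. After quantile normalization the difference was 0.085 and the trend fit no longer called it (adjusted p = 0.256). Cd3d (1422828_at), the delta chain, read 3793 and 3810 on the lymph node GFP-RFP+ arrays, 3440 and 3367 on the lymph node GFP+RFP+ arrays, 4075 and 3515 on the spleen GFP-RFP+ arrays and 3512 and 3550 on the spleen GFP+RFP+ arrays. The spleen arrays of the populations overlapped for Cd3d, and its difference of 0.13 ± 0.11 (SE) turned to -0.067 after quantile normalization.

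The zeta chain gene Cd247 had no probe set called between the populations. Its representative 1426396_at read 1977 and 2071 on the lymph node GFP-RFP+ arrays, 2036 and 2123 on the lymph node GFP+RFP+ arrays, 2079 and 2097 on the spleen GFP-RFP+ arrays and 2048 and 2088 on the spleen GFP+RFP+ arrays, which all overlapped. The difference was -0.01 ± 0.11 (SE), with a 95% interval from -0.39 to 0.36 and a limma adjusted p of 0.963. After quantile normalization it was -0.10, which the trend fit did not call (adjusted p = 0.19). The other Cd247 probe sets 1420716_at and 1452539_a_at gave 0.19 each and the dim 1426079_at gave -0.23, and none of these passed the test in either fit. The interval does not show that the zeta chain was equal, only that no difference passed at this precision.

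Of the 9 representatives, that of the co-receptor gene Cd4 differed most. It (1419696_at) read 476 and 498 on the lymph node GFP-RFP+ arrays, 342 and 341 on the lymph node GFP+RFP+ arrays, 475 and 484 on the spleen GFP-RFP+ arrays and 370 and 338 on the spleen GFP+RFP+ arrays. Every GFP-RFP+ array exceeded every GFP+RFP+ array in both organs. The difference was 0.48 ± 0.11 (SE), or 1.39-fold, with a 95% interval from 0.10 to 0.85, a limma adjusted p of 0.264 and a trend adjusted p of 0.000144. After quantile normalization it was 0.39 (trend adjusted p = 0.000856). Within the organs it was 0.51 in lymph nodes and 0.44 in spleen, while the largest gap between technical replicates was 0.13. The second Cd4 probe set, called P on 4 arrays, gave 0.19 ± 0.12 (SE) with overlapping arrays.

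**Figure D4:**
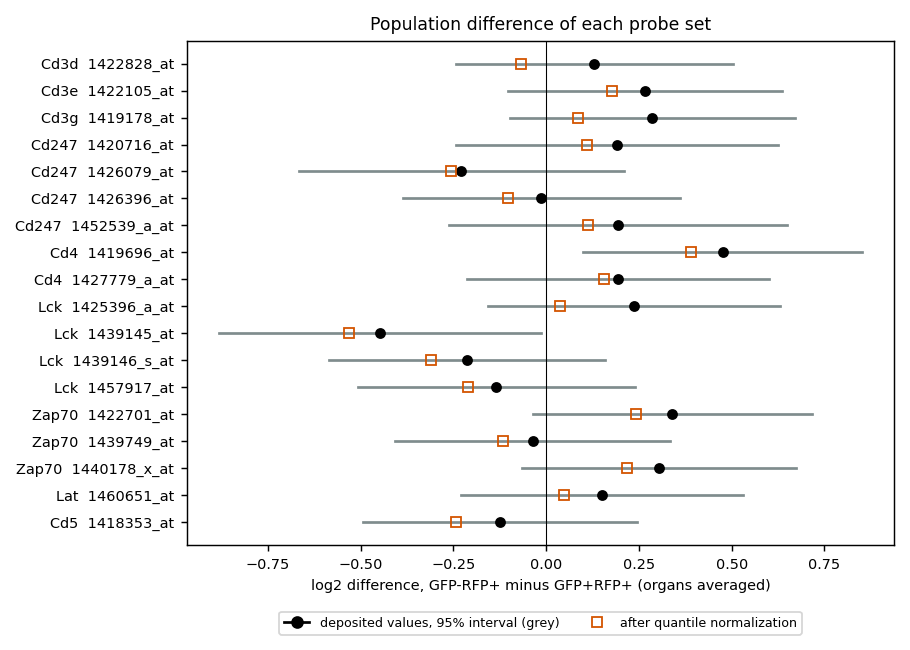
Log2 population difference of each member probe set, GFP-RFP+ minus GFP+RFP+, averaged over the organs; circles are deposited values with the 95% interval of the averaged fit (grey), and open squares are the values after quantile normalization. The Cd4 representative at 0.48 and the Lck probe set 1439145_at at -0.45 are the only ones whose interval does not cross 0, and the Lck probe sets lie on both sides of 0.

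The kinase gene Lck gave opposite signs by probe set. The brightest, 1425396_a_at, read 4986 and 5063 on the lymph node GFP-RFP+ arrays, 3991 and 4155 on the lymph node GFP+RFP+ arrays, 5238 and 4459 on the spleen GFP-RFP+ arrays and 4339 and 4263 on the spleen GFP+RFP+ arrays. It was higher in GFP-RFP+ cells without overlap, by 0.24 ± 0.12 (SE), with a limma adjusted p of 0.413 and a trend adjusted p of 0.00722. After quantile normalization this was 0.039 and was not called (trend adjusted p = 0.662).

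The probe set 1439145_at read 351 and 461 on the lymph node GFP-RFP+ arrays, 500 and 517 on the lymph node GFP+RFP+ arrays, 403 and 423 on the spleen GFP-RFP+ arrays and 591 and 627 on the spleen GFP+RFP+ arrays. Here every GFP-RFP+ array was lower, and the difference was -0.45 ± 0.13 (SE), with a limma adjusted p of 0.287 and a trend adjusted p of 0.0004. After quantile normalization it was -0.53 (trend adjusted p = 9.73e-05).

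A further Lck probe set, 1439146_s_at, read 899 and 1034 on the lymph node GFP-RFP+ arrays, 1105 and 1096 on the lymph node GFP+RFP+ arrays, 1024 and 943 on the spleen GFP-RFP+ arrays and 1123 and 1193 on the spleen GFP+RFP+ arrays, again with every GFP-RFP+ array lower. Its difference was -0.21 ± 0.11 (SE), with a limma adjusted p of 0.425 and a trend adjusted p of 0.0193. The remaining one, 1457917_at, had overlapping arrays between 425 and 573 and a difference of -0.13 ± 0.11 (SE), which only the trend fit after quantile normalization called (-0.21, adjusted p = 0.0337). By Affymetrix naming, the suffix a marks a probe set that matches several transcripts of 1 gene, and the suffix s one that can match more than 1 gene. The positions of the probes were not analysed here.

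Over the 8 arrays, Pearson's r between 1425396_a_at and the other Lck probe sets was -0.68, -0.59 and -0.50. Among the other 3 it was 0.94, 0.68 and 0.60. These points share their extracts in pairs and are a description only. Which Lck transcripts the difference concerns was not tested.

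**Figure D5:**
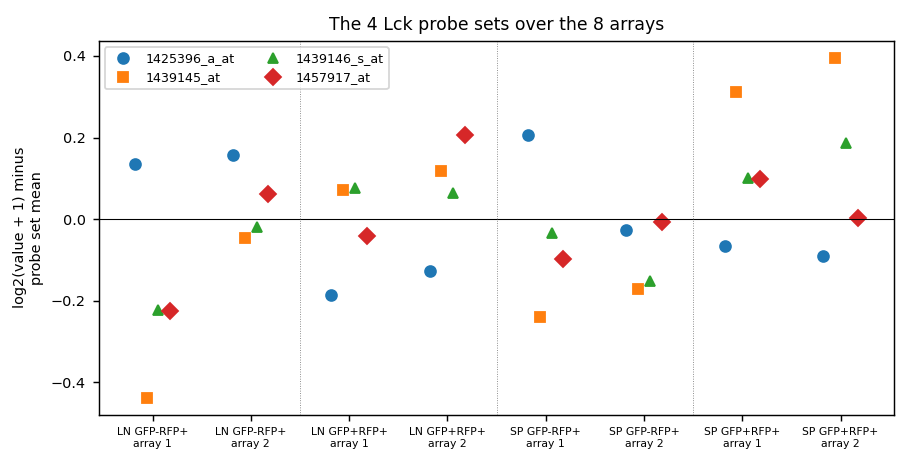
The 4 Lck probe sets over the 8 arrays, each as log2(value + 1) minus its own mean; dotted lines separate the 4 groups of 2 technical replicates. The probe set 1425396_a_at (circles) is above the others on the GFP-RFP+ arrays of both organs, except for the second spleen array where it is close to 1457917_at, and 1439145_at (squares) is high on the GFP+RFP+ arrays.

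Zap70, the kinase that binds the phosphorylated receptor chains, was measured by a pair of probe sets that agreed and another that did not. The representative 1440178_x_at read 1661 and 1762 on the lymph node GFP-RFP+ arrays, 1340 and 1419 on the lymph node GFP+RFP+ arrays, 1776 and 1804 on the spleen GFP-RFP+ arrays and 1468 and 1446 on the spleen GFP+RFP+ arrays. There was no overlap between the populations, and the difference was 0.30 ± 0.11 (SE), with a limma adjusted p of 0.329 and a trend adjusted p of 0.00115.

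The second Zap70 probe set, 1422701_at, read 968 and 975 on the lymph node GFP-RFP+ arrays, 782 and 792 on the lymph node GFP+RFP+ arrays, 1119 and 1018 on the spleen GFP-RFP+ arrays and 844 and 801 on the spleen GFP+RFP+ arrays. It differed by 0.34 ± 0.11 (SE), again without overlap, with a limma adjusted p of 0.308 and a trend adjusted p of 0.000839. After quantile normalization the differences were 0.22 and 0.24, and the trend fit called both (adjusted p of 0.00703 and 0.00742). These probe sets had r = 0.95 over the 8 arrays. The dimmer 1439749_at ranged from 128 to 155 with a difference of -0.04 ± 0.11 (SE) and overlapping arrays. The suffix x of the representative marks probes that can cross-hybridise, which 1422701_at does not carry.

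Lat, the adaptor that Zap70 phosphorylates, read 2495 and 2602 on the lymph node GFP-RFP+ arrays, 2152 and 2297 on the lymph node GFP+RFP+ arrays, 2365 and 2236 on the spleen GFP-RFP+ arrays and 2140 and 2138 on the spleen GFP+RFP+ arrays. The lymph node populations were apart and one GFP-RFP+ spleen array lay within the range of the GFP+RFP+ arrays. The difference was 0.15 ± 0.11 (SE), which neither fit called (limma adjusted p = 0.552, and 0.084 with the trend), and it was 0.049 after quantile normalization.

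Cd5, the negative regulator, was the member whose only probe set (1418353_at) was lower in GFP-RFP+ cells in both organs. It read 2501 and 2562 on the lymph node GFP-RFP+ arrays, 2721 and 2772 on the lymph node GFP+RFP+ arrays, 2783 and 2718 on the spleen GFP-RFP+ arrays and 2984 and 3038 on the spleen GFP+RFP+ arrays. Within each organ the GFP-RFP+ arrays were the lower ones, while across organs the spleen GFP-RFP+ arrays overlapped the lymph node GFP+RFP+ arrays. The difference was -0.12 ± 0.11 (SE), with a limma adjusted p of 0.607 and a trend adjusted p of 0.147. After quantile normalization it was -0.24, and the trend fit called it (adjusted p = 0.00187). Its technical replicates differed by at most 0.03.

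On both scales the trend fit thus called Cd3e, Cd4 and the Zap70 probe sets 1440178_x_at and 1422701_at higher in GFP-RFP+ cells, and the Lck probe sets 1439145_at and 1439146_s_at lower. As deposited, 6 of the 18 member probe sets were called higher and 2 lower, against 10.1% and 5.34% of all probe sets. After quantile normalization 4 were called higher and 4 lower, against 7.77% and 8.7% of all probe sets. These shares include dim probe sets, while most members are bright, and the share of trend calls among bright probe sets was not computed. For array overlap the share was larger among probe sets called P on all arrays. It was 23.8% higher and 13.1% lower there, against 12% and 7.42% of all probe sets.

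Less RNA of a gene per cell and fewer cells that express it cannot be told apart in these bulk samples. Foxp3, which defines the lineage, was 0.57 ± 0.12 (SE) lower in GFP-RFP+ cells, and Il2ra, which encodes the sorted marker CD25, was 0.86 ± 0.22 (SE) lower, each on all 4 arrays. Their limma adjusted p was 0.254 and 0.274, and 7.72e-06 and 3.35e-05 with the trend. The other genes listed for regulatory T cells went different ways. Ikzf4 differed by -0.65 and Ctla4 by 1.45, each without overlap, whereas Ikzf2 (-0.12), Nrp1 (-0.045) and Tnfrsf18 (0.060) overlapped between the populations and were not called as deposited. After quantile normalization the trend fit called Ikzf2 lower (-0.28, adjusted p = 0.000752), and still did not call Nrp1 or Tnfrsf18. Among markers of other cells, the trend fit called 2 of 6 myeloid, 1 of 4 erythroid and 1 of 5 NK cell genes higher in GFP-RFP+ cells. It called 1 of 5 NK cell and 1 of 5 measured B cell genes lower. Over all probe sets the shares were 10.1% higher and 5.34% lower, so single calls in such short lists say little. The part of the marker differences in the differences of the members was not tested.

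With the trend, fewer probe sets of the whole array were called between the organs than between the populations, and the members differed less too. All 18 probe sets overlapped between the lymph node and the spleen arrays, where 1.88% of all probe sets were wholly higher in lymph nodes and 2.84% wholly lower. The differences, lymph nodes minus spleen, ran from -0.13 for Cd5 to 0.10 for Lat over the representatives, with a median of -0.023 against -0.010 over all probe sets. Limma adjusted p was 0.823 to 0.992 for these 9, and 0.394 to 0.98 with the trend. The averaged fit called 0 probe sets (0%) between organs, with 3649 at an unadjusted p under 0.05 (8.1%), and the trend fit called 872 (1.94%).

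The organ differences of Cd3d, Cd247, Cd4 and Lck were all under 0.03 in size, and each changed sign under median centring of the arrays. The spleen arrays carry the higher myeloid, erythroid and B cell marker values given above. Of the measured B cell markers, Ms4a1 differed by -3.29 and Cd79b by -0.83 between lymph nodes and spleen (limma trend adjusted p of 3.98e-08 and 0.00028). The part of these in the organ differences was not tested.

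The difference between populations did not pass a test of change between organs for any member. In a limma fit on the 8 arrays, whose error is that of technical replicates only, the population difference in lymph nodes minus that in spleen ran from -0.05 for Cd247 to 0.14 for Lck over the representatives. The limma adjusted p was at least 0.934 for all 18 probe sets. That fit called 1 of 45037 probe sets (0.00222%), with 5.77% at an unadjusted p under 0.05. For Cd4 the value was 0.07 with a 95% interval from -0.28 to 0.42, so a change between organs of that size remains possible.

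Other genes of the pathway were described from lists of receptor-proximal activators and of inhibitors. Of 25 listed activators, 21 had a probe set with a single identifier, all but the receptor chain genes Trac, Trbc1, Trbc2 and Trdc. None passed the averaged fit. With the trend 8 were called higher in GFP-RFP+ cells and 3 lower, against 10.1% and 5.34% of all probe sets, and the median difference was 0.10 against 0.0093 over all probe sets (0.0040 against -0.038 after quantile normalization, with 7 called higher and 3 lower). For both lists the shares over all probe sets include dim ones, and the share of trend calls among bright probe sets was not computed.

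Among the activators, Sh2d2a, which encodes the Lck-binding adaptor TSAd, differed most upward (0.81 ± 0.18, SE). The co-stimulatory receptor gene Cd28 was 0.79 ± 0.11 (SE) higher, with group means of 3501 against 2029 in lymph nodes and 3588 against 2080 in spleen. Grap2, encoding the adaptor Gads that joins Lat to Slp76, was 0.38 ± 0.11 (SE) higher. The Tec-family kinase gene Txk was -0.76 ± 0.13 (SE), the exchange factor gene Sos1 -0.49 ± 0.12 (SE) and Trat1, encoding a transmembrane adaptor of the receptor, -0.33 ± 0.12 (SE). The limma adjusted p of these 6 was between 0.25 and 0.327, and each passed with the trend. Fyn, the Src-family kinase that works beside Lck, and Lcp2, which encodes Slp76, were 0.38 and 0.35 higher.

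All 20 genes on the inhibitor list had a probe set with a single identifier. The list includes Ptprc, whose product, the phosphatase CD45, also activates Lck, so it is not an inhibitor only. Ptprc is among the genes counted as higher with the trend below (0.22, trend adjusted p = 0.0118). After quantile normalization it was not called. With the trend 10 were called higher in GFP-RFP+ cells and 0 lower, against 10.1% and 5.34% of all probe sets, and the median difference was 0.17 against 0.0093. After quantile normalization 8 were called higher and 3 lower, against 7.77% and 8.7%, with a median of 0.068 against -0.038, so the absence of lower inhibitors does not hold on that scale. The ubiquitin ligase gene Cblb was 1.56 ± 0.11 (SE) higher, with group means of 1712 against 602 in lymph nodes and 1538 against 512 in spleen. Ctla4, the inhibitory receptor that competes with CD28 and also a marker of regulatory T cells, was 1.45 ± 0.11 (SE) higher, at 5482 against 2076 and 5274 against 1870. Pag1, which anchors the Lck-inhibiting kinase Csk, was 0.69 ± 0.12 (SE) higher, from low values between 51.4 and 111. Dgka, Ubash3a and Sla2 differed by -0.13, -0.14 and -0.16. The limma adjusted p of Cblb, Ctla4 and Pag1 was 0.25 each.

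Between the organs the activators had 0 genes called by the trend fit and the inhibitors 1, the receptor gene Pdcd1, which was -0.44 ± 0.21 (SE) in lymph nodes against spleen (limma trend adjusted p = 0.0431) and was not called after quantile normalization. The largest activator values were 0.31 for Cd8b1, 0.25 for Themis and 0.24 for Grap2. Cd8b1, which is also on the CD8 T cell marker list, had low values, between 77.3 and 120. The low end of the activators included -0.14 for Nck1 and -0.12 for Cd2. Among the inhibitors, Ubash3b, Cblb and Ctla4 had 0.21, 0.18 and 0.10, and Dok1 and Lax1 had -0.26 and -0.24.

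The representatives of Cd3d, Cd3e, Cd3g, Lck, Cd4 and Zap70 had profiles over the 8 arrays with pairwise r from 0.72 to 0.96, while r with Cd5 was between -0.36 and -0.66 for these 6 genes. Lat had r from 0.62 to 0.80 with the 6 genes and -0.82 with Cd5. Cd247 had r from -0.28 to -0.0023 with the 6 genes. Its range over the arrays was only 0.10, with technical replicates up to 0.067 apart, so these r values say little about its profile. The arrays share extracts in pairs and the bright-range shift described above, so these values are a description. The 5 genes with the profile most like the mean standardized profile of the 9 members, among 8743 genes called P on all arrays, were Madd, Nfkbib, Maf1, Jakmip1 and Tpm3, with r from 0.986 to 0.997 over 8 arrays, against a median r of 0.18 over these genes. Their population differences were 0.20, 0.30, 0.12, 0.23 and 0.17.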

How the data were processed

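RNA of 8 samples in 4 groups was measured on Mouse430_2 arrays. Expression was summarised by the authors in dChip, per the file headers, against a baseline array, with an outlier check and no log transform. The result is a linear intensity value, held in the deposited table of unlabelled arrays as a model-based expression score. Detection calls (P, M or A) are another deposited column, of unit other than a measurement. The submitters' processing notes name RMA. However, each of the 8 sample-named columns equals 1 dChip column for every probe set within 0.006, so the compared values are the dChip ones. The names of the dChip and call columns match no sample, so these columns were used only as 8 unlabelled arrays.

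Values were compared as log2(value + 1) over 45037 non-control probe sets with limma 3.58.1 in R 4.3.3 (lmFit and eBayes, Benjamini-Hochberg over all probe sets, threshold 0.05), after averaging the technical replicates. The fit has 1 residual degree of freedom, and its prior adds 1.72. The fits were run on simulated data, where the averaged fit recovered none of the changes put in. The trend fit recovered 17% of log2 changes of 0.5 and 78% of log2 changes of 1. The simulated noise was that of technical replicates only, with no spread between organs. The simulation therefore does not show how often either fit misses or errs in the real data. Alternatives were an intensity trend, quantile normalization, median centring, a pseudocount of 16, filters on dim probe sets, all 8 arrays, replicate or extract blocks, and leaving out each array. Intensity values have no count depth, and the number of arrays limits the precision. Gene symbols came through Entrez identifiers from a RefSeq table of GRCm38.p6, whose symbols cover 18007 of the 20665 identifiers. The genes named are all members, the 3 highest and 3 lowest of each pathway list, those named to check the labels and the 5 most alike, except 1 that is not reported here; Fyn and Lcp2 were added after their values were seen. The members and lists were chosen with earlier results of these data known.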

Additional observations from a re-analysis of the deposited data

How the results depend on the processing

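The count of probe sets called between the populations changed with several settings. It was 0 in the averaged fit, with median centring, with quantile normalization, with only probe sets called P on at least 2 arrays and with any 1 array left out (0 to 0). It was 6968 with an intensity trend (7420 after quantile normalization), 3700 with a pseudocount of 16, 4618 over probe sets above the median level, 4829 with the 8 arrays as separate samples (5287 after quantile normalization) and 8514 with the extract as a random block. Between organs the count was 0 in the averaged fit and 872, 845, 279, 164, 350, 344 and 901 in the same order, and 28 over probe sets called P on at least 2 arrays. The trend raised the interaction count from 1 to 4. The fits on quantile-normalized values with the trend or with 8 arrays were chosen after seeing the data, and the cause of these changes in count was not tested.

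The replicate numbers showed no pairing of the samples over all probe sets, where the deviations of same-numbered arrays correlated between -0.05 and 0.02. A pairing that touches only some probe sets was not tested. With a replicate block on the 8 arrays, 3799 probe sets were called between populations and 196 between organs, and Cd4 (1419696_at, 0.48) and Zap70 (1422701_at, 0.34) were the members called.

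The population difference of Cd3d turned to -0.067 after quantile normalization, in the fits with averaged replicates (with and without the trend) and in that on 8 arrays. The organ difference of Cd3d became 0.028 with median centring and 0.017 after quantile normalization, in each of these fits, and that of Lck 0.040 and 0.0092. With median centring those of Cd247 and Cd4 became 0.033 and 0.038. Leaving out 1 array, the population difference ran from -0.029 to 0.0043 for Cd247 (1426396_at) and from -0.092 to 0.019 for Zap70 (1439749_at), and the organ difference from -0.077 to 0.030 for Cd3d, -0.046 to 0.019 for Cd4 and -0.070 to 0.047 for Lck. Of the organ differences, only those of the 9 representatives were tested in this way. All other member differences tested kept their sign. Outside these tests, the organ difference of the Cd247 probe set 1426079_at went from -0.019 to 0.031 after quantile normalization. Of the values over unlabelled arrays, 4 levels moved by more than their spread and 23 did not, with the same counts for the ranges. All 9 median percentiles tested moved by more than their spread when taken only among probe sets called P. Leaving out dim probe sets lowers the percentile of a bright one by construction, so this does not show how stable the ranks are. Technical replicates of pooled organs limit every comparison, since no array measures the spread between mice.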
